A study of Homo sapiens with 4 samples.

Results

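The ERBB receptors and their EGF family ligands were followed as 10 genes taken by name from the authors' deposited comparison of 34675 genes. They are the receptor genes EGFR, ERBB2 and ERBB3 and the ligand genes HBEGF, TGFA, NRG1, EREG, AREG, BTC and EPGN, and each had 1 row. Per the labels, the cells were MDA-MB-231, an established triple-negative breast carcinoma line with a mesenchymal-like phenotype that is known to lack LKB1 protein. One stable line carried the empty pcDNA vector and the other a pcDNA plasmid for wildtype LKB1 with a FLAG tag, LKB1 being the kinase that STK11 encodes. Both were grown on plastic in medium with serum, and 2 libraries of total RNA were sequenced from each. The labels do not say whether a stable line was 1 clone or a pool, nor whether its libraries were separate cultures, so the p-values here reflect only the spread among these libraries, which may be technical. By their titles 3 of the 4 libraries share a run tag and 1 LKB1 library carries another, and which values came from it is not in the table.

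ERBB receptors are tyrosine kinases that signal in pairs. EGFR binds TGFA, AREG, EPGN, HBEGF, BTC and EREG, the last 3 of which also bind ERBB4. The neuregulin NRG1 binds ERBB3 and ERBB4, while ERBB2 has no known ligand and serves as a partner for the other receptors. The ligands are made as membrane-anchored precursors and are released by metalloproteases. Triple-negative lines of this kind are known for abundant EGFR and little ERBB2 and ERBB3.

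In the LKB1 line the neuregulin gene NRG1 was 2.59-fold lower and the transforming growth factor gene TGFA 1.72-fold higher than in the vector line. None of the 3 receptor genes passed the test, nor did the other 5 ligand genes. The totals of NRG1 and TGFA were nearly equal in the vector line, at 865 and 876 reads, and stood at 347 and 1571 reads in the LKB1 line. Calls were made where the adjusted p lay under 0.05. By that rule 2 of the 10 members were called, 1 higher and 1 lower, against 5.79% of all genes (2.55% higher and 3.24% lower). Of the members 9 had at least 40 reads and EPGN had none. Among all genes with at least 40 reads 12.6% were called, 5.77% higher and 6.86% lower. The median log2 fold of the 9 members was 0.16, beside -0.02 over all genes with at least 40 reads. A count of 2 in 10 is too small to be read as a property of the group.

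The deposited table holds folds and p-values per gene, and no value per library. Each read total below adds up both libraries of 1 line and was recovered from the folds, at a depth of the LKB1 line of 1.04 times that of the vector line. Over all genes but the 146 whose totals could not be resolved, the recovered reads came to 10816702 in the vector line and 11380558 with LKB1. Which line is the numerator is not named in the header. LKB1 was taken as the numerator because STK11 stood above 1 (1321 and 2112 reads, 1.54-fold), so every direction rests on that reading and STK11 is no check of it. Were the vector line the numerator, the totals and shares of each gene would change places between the lines. In the authors' deposited table STK11 had an adjusted p of 0.00105, and with an assumed variation of 0.2 between libraries one of 0.552. Standard errors (SE) of log2 folds were derived from the deposited p-values. Of 6 markers of the named line, EGFR and CAV1 (5533 and 8967 reads) have known totals, and those of VIM, CD44, AXL and MSN could not be resolved. CAV1 and AXL were called higher (log2 0.64 and 0.42) and in the authors' deposited table MSN was lower (log2 -0.55, adjusted p = 0.00314). The receptor genes ESR1 (8 and 12 reads) and PGR (4 and 0 reads) and the epithelial gene GRHL2 (13 and 6 reads) were near absent. The epithelial genes CDH1 (431 and 278 reads), EPCAM (152 and 209 reads) and CLDN4 (1284 and 2149 reads) were not. CLDN4 was called higher (log2 0.69, adjusted p = 0.000492 in the authors' deposited table). ERBB3, also among the genes looked for as near absent, had 101 and 134 reads. The 5 endothelial markers in the table were all lower in the LKB1 line, with summed totals of 1846 and 264 reads. None of the 5 was at 0 in either line. Leukocyte markers summed to 770 and 346 reads (3 in the table, 1 higher and 1 lower), fibroblast markers to 452 and 418 (5, with 2 lower), luminal markers to 14612 and 15384 (7, with 2 lower; FOXA1 had 1 and 0 reads), and basal markers to 119 and 150 (4, none called; KRT5 had no read and KRT14 1 and 0). The leukocyte sum was mostly LCP1, the lower gene, with 693 and 200 reads. CD14, the higher gene, had 67 and 144, and PTPRC had 10 and 2. The luminal sum was mostly KRT8, KRT18 and KRT19, and the 2 lower genes were SPDEF, with 816 and 22 reads, and AGR2, with 137 and 8. By the reads of a single gene, 1 of the 2 groups failed a check for mixed-up samples, so that both lines are MDA-MB-231 rests on the labels, and a difference between cell lines and one made by LKB1 cannot be told apart in any result here. The part of these differences in the results that follow was not tested, and in such bulk samples fewer cells of a type and less RNA per cell cannot be told apart. The 2 lines also differ in a term of their library titles whose meaning the labels do not give. Whatever that term stands for and the plasmid cannot be told apart.

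**Figure D1:**
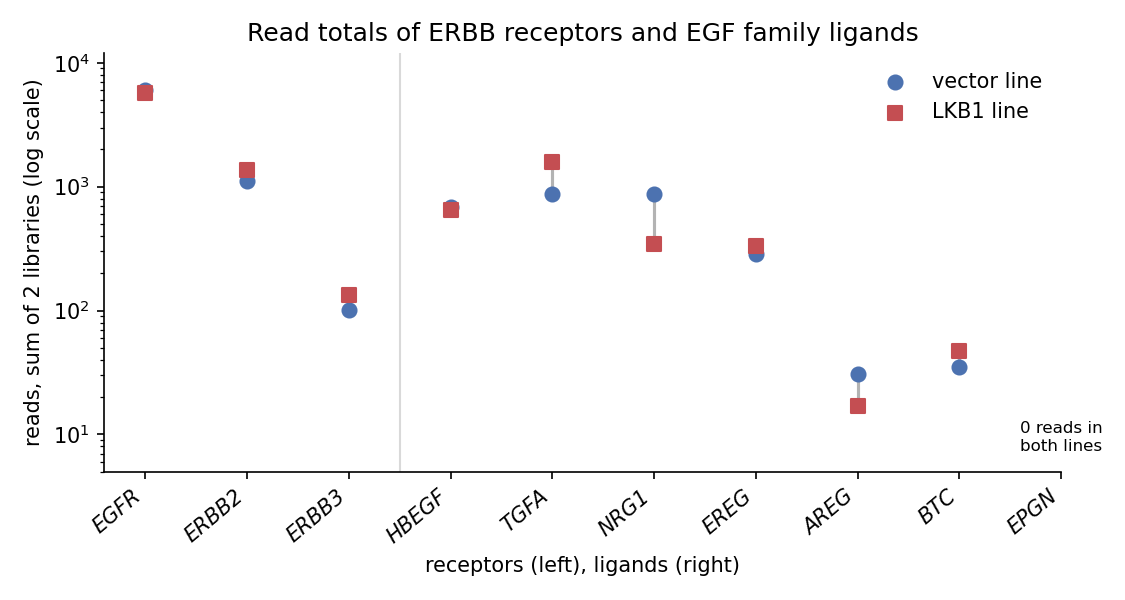
Read totals of the 10 members (sum of 2 libraries per line, log scale) in the vector line (blue circles) and the LKB1 line (red squares). EGFR lies highest at 6075 and 5726 reads, NRG1 and TGFA stand together in the vector line and apart in the LKB1 line, and EPGN had 0 reads in both.

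Among the receptors, EGFR (ENSG00000146648.11, chromosome 7, 55086714 to 55324313, plus strand, hg19) had 6075 reads with the vector and 5726 with LKB1. Its deposited log2 fold was -0.14 (SE 0.14, 95% interval -0.42 to 0.13, adjusted p = 1). The interval includes 0 and, on the fold scale, runs from 0.749 to 1.10. ERBB2 (ENSG00000141736.8, chromosome 17, 37844167 to 37886679, plus strand) had 1104 and 1364 reads, a log2 fold of 0.25 (SE 0.15, interval -0.04 to 0.54, adjusted p = 0.573). ERBB3 (ENSG00000065361.8, chromosome 12, 56473641 to 56497289, plus strand), whose product has an impaired kinase domain and signals through its partner, had 101 and 134 reads, a total made uncertain by an overlapping entry on the same strand. Its log2 fold was 0.35 (SE 0.29, interval -0.22 to 0.93, adjusted p = 0.956). Both ERBB2 and ERBB3 lay above 0 by more than their SE, but their 95% intervals include 0 and neither was called.

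Per kilobase of exon and at the vector line's depth, EGFR stood at 536 with the vector and 486 with LKB1. ERBB2 stood at 195 and 232 and ERBB3 at 13.6 and 17.3. The order EGFR, ERBB2, ERBB3 was therefore the same in both lines. EGFR was 2.75-fold above ERBB2 in the vector line (95% interval 2.26 to 3.34) and 2.10-fold above it in the LKB1 line (1.73 to 2.54), and ERBB2 was 14.3-fold (10.5 to 19.6) and 13.4-fold (9.95 to 17.9) above ERBB3. Each step was larger than the error, which holds counting error and the variation between libraries that the deposited p-values imply. Ranked against 16428 protein-coding genes with reads, a resolved total and a known exon length, EGFR was at percentile 92.0 with the vector and 90.8 with LKB1. Genes with too many reads to resolve were left out, so percentiles may be too high. ERBB2 was at 75.7 and 79.1, and ERBB3 at 31.6 and 34.6. Of the summed level of the 3 receptors EGFR made up 71.99% with the vector and 66.1% with LKB1, ERBB2 26.2% and 31.5%, and ERBB3 1.83% and 2.36%. ERBB4, the other neuregulin receptor and no member here, had 34 and 24 reads (adjusted p = 0.98) and a level of 2.80 and 1.90 reads per kilobase, below ERBB3 in both lines.

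TGFA (ENSG00000163235.11, chromosome 2, 70674412 to 70781325, minus strand), a high-affinity EGFR ligand, had 876 reads with the vector and 1571 with LKB1. It rose 1.72-fold in the authors' deposited table (log2 0.79, SE 0.16, 95% interval of the fold 1.39 to 2.15, adjusted p = 5.81e-05). Its call was lost where all genes were given a variation of 0.2 (adjusted p = 0.208). The variation that its deposited p implies was 0.103, beside a median of 0.101 over 3776 protein-coding genes of like totals. Being derived from that p, it is no measure of spread separate from the test. NRG1 (ENSG00000157168.13, chromosome 8, 31496902 to 32622548, plus strand), a neuregulin that binds ERBB3 and ERBB4, had 865 and 347 reads. It fell 2.59-fold in the authors' deposited table (log2 -1.37, SE 0.17, fold interval 0.306 to 0.486, adjusted p = 1.4e-13). This call held with an assumed variation of 0.2 (adjusted p = 0.000668) and was lost with 0.3 (adjusted p = 0.143). The gene has many isoforms with different ligand domains, which a total per gene does not separate. Taken as a difference between the 2 log2 folds, TGFA and NRG1 moved apart by 2.16 (SE 0.23, interval 1.70 to 2.62), a 4.47-fold change of their ratio, with the 2 errors treated as independent.

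**Figure D2:**
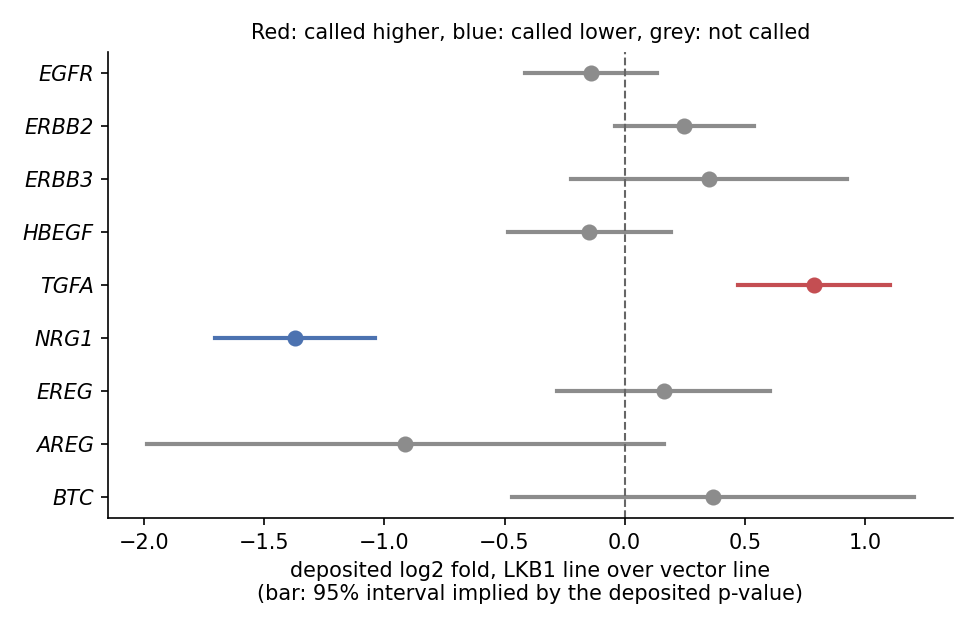
Deposited log2 fold of the 9 members with reads, LKB1 line over vector line, with the 95% interval implied by the deposited p-value. The interval of TGFA (red, 0.47 to 1.10) lies above 0 and that of NRG1 (blue, -1.71 to -1.04) below 0, and all 7 others (grey) include 0.

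The other ligands gave no call. HBEGF (ENSG00000113070.6, chromosome 5, 139712428 to 139726216, minus strand), the heparin-binding ligand of EGFR and ERBB4, had 691 and 649 reads. Its log2 fold was -0.15 (SE 0.17, interval -0.48 to 0.19, adjusted p = 1). EREG, or epiregulin (ENSG00000124882.3, chromosome 4, 75230860 to 75254468, plus strand), had 286 and 333 reads and a log2 fold of 0.16 (SE 0.23, interval -0.28 to 0.61, adjusted p = 1). AREG, or amphiregulin (ENSG00000109321.6, chromosome 4, 75310851 to 75320726, plus strand), had 31 and 17 reads. Its log2 fold of -0.91 (SE 0.55, interval -1.99 to 0.16, adjusted p = 0.596) is below 0, but at this depth the interval of the fold runs from 0.252 to 1.12 and a difference was not detectable. BTC, or betacellulin (ENSG00000174808.7, chromosome 4, 75669969 to 75719896, minus strand), had 35 and 47 reads and a log2 fold of 0.37 (SE 0.43, interval -0.47 to 1.20, adjusted p = 1). EPGN, or epigen (ENSG00000182585.5, chromosome 4, 75174190 to 75181024, plus strand), had 0 reads in both lines, which allows up to 3 reads per line (counting error only).

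On the scale of reads per kilobase the order of the ligands differed between the lines. In the vector line HBEGF led with 290, followed by TGFA with 183, NRG1 with 93.9, EREG with 61.9, AREG with 25.0 and BTC with 12.4. Each neighbour in that order lay above the next by more than its error, the closest being NRG1 over EREG at 1.52-fold (interval 1.17 to 1.97). In the LKB1 line TGFA stood at 315 and HBEGF at 262, which did not differ beyond their error (1.20-fold, interval 0.962 to 1.51). EREG at 69.3 came next and NRG1 at 36.2 after it (1.91-fold, interval 1.46 to 2.51), then BTC at 16.1 and AREG at 13.2, which did not differ beyond their error (1.22-fold, interval 0.641 to 2.31). NRG1 thus stood above EREG in the vector line and below it in the LKB1 line. With the longest protein-coding transcript as the length, which was tried after the data had been seen, the order was the same, but EREG over NRG1 in the LKB1 line was 1.23-fold with an interval of 0.940 to 1.62, and TGFA over HBEGF 1.34-fold with one of 1.07 to 1.68. Of the summed ligand level HBEGF made up 43.5% with the vector and 36.8% with LKB1, TGFA 27.4% and 44.3%, and NRG1 14.1% and 5.09%. The sum itself was 665 and 711 reads per kilobase, so the share of TGFA was larger and that of NRG1 smaller in the LKB1 line at sums of like size.

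**Figure D3:**
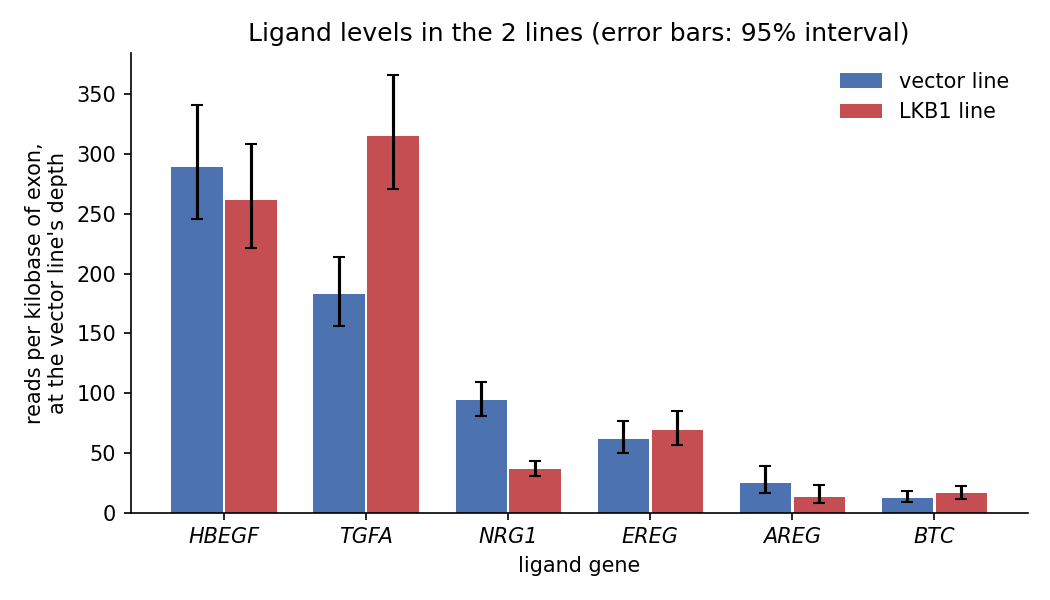
Levels of 6 ligand genes in reads per kilobase of exon at the vector line's depth, for the vector line (blue) and the LKB1 line (red), with 95% intervals. TGFA goes from 183 to 315 and NRG1 from 93.9 to 36.2, and the intervals of the other ligands overlap between the lines.

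Of the family genes outside the members, EGF itself, the founding EGFR ligand, fell from 143 to 79 reads (log2 -0.91, SE 0.28, adjusted p = 0.021 in the authors' deposited table). This call was lost with an assumed variation of 0.2 (adjusted p = 0.24). NRG2 had 39 and 38 reads (log2 -0.09, adjusted p = 1). NRG3 had 2 and 3 reads, whose ratio has a counting interval of 0.165 to 17.3. NRG4 had 0 and 2 reads, at or under the limit that a count of 0 allows. Of these 5 genes 1 fell, none rose, and the other 4 were not called.

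EPGN, EREG, AREG and BTC lie beside each other on chromosome 4, within 75174190 to 75719896 (hg19). The table also holds AREGB in this run (75480629 to 75490486), a near-identical copy of AREG in that build, with 0 reads with the vector and 1 with LKB1. Reads that fit both copies could have been shared out or dropped in counting, which is not given in the sources used here, so the AREG totals are uncertain. The 4 neighbouring ligand genes did not have like totals, from 0 reads for EPGN to 286 and 333 for EREG. The promoters of these 4 and of TGFA, the ligand gene that rose, are printed because their letters can be set beside these unequal levels. Each is the 250 bases before the start site listed by RefSeq (GRCh38.p14, first entry of the gene), 5′ to 3′ on the gene's own strand. Capitals mark a cAMP response element (TGACGTCA), its 5-base core (TGACG) or a TATA box (TATAAA), all searched on both strands.
EPGN, chr4:74308220-74308469, plus strand: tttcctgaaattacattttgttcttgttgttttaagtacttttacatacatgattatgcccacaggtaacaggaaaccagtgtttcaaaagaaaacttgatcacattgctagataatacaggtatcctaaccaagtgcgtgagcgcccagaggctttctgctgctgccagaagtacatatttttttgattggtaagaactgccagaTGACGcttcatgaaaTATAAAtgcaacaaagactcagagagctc
EREG, chr4:74364895-74365144, plus strand: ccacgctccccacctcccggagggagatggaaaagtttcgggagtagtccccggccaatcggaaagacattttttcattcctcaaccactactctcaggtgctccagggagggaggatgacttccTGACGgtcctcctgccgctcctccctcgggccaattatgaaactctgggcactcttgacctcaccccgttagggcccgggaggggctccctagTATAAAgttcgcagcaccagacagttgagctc
AREG, chr4:74444886-74445135, plus strand: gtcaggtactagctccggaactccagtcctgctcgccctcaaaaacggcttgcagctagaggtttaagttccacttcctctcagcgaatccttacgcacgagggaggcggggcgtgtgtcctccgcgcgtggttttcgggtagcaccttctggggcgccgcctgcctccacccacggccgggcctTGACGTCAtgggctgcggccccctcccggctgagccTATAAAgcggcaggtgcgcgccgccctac
BTC, chr4:74794524-74794773, minus strand: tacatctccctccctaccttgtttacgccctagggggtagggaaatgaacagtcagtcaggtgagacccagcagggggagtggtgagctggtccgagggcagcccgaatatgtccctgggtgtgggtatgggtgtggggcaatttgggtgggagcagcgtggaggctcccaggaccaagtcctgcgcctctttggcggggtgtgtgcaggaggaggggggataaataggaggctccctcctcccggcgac
TGFA, chr2:70553827-70554076, minus strand: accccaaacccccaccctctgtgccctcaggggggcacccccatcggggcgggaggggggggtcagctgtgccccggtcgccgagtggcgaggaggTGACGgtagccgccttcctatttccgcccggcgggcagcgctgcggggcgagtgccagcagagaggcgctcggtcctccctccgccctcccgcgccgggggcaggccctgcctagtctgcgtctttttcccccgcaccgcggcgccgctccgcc

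AREG held the whole cAMP response element, from 65 to 58 bases before the start, as did 1.65% of the 35116 listed promoters. The core outside a whole element was found in EREG (125 to 121 bases before the start), EPGN (44 to 40) and TGFA (154 to 150), and in 21.2% of all promoters when cores inside whole elements are counted. EPGN, EREG and AREG each held TATAAA, beginning 29, 32 and 29 bases before the start, and BTC and TGFA did not, against 10.7% of all promoters. The TGFA window was 75.6% G and C and held 3 GC boxes (GGGCGG, in 42.6% of all promoters), while that of EPGN was 38.0% G and C. GC boxes were also found in the AREG window and in those of HBEGF and EGFR, which are not printed. None of these genes was called, and the HBEGF window was 76.4% G and C. The AP-1 motif TGANTCA (in 6.57% of all promoters) was in none of the 5 printed windows. These matches describe letters and not bound sites, and genes with and without the elements were among those not called.

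The 24 nearest genes with at least 40 reads were set beside each member to show whether its surroundings moved with it. Over all genes with at least 40 reads 12.6% were called, 5.77% higher and 6.86% lower. For NRG1 the median log2 fold of the neighbours was -0.36, with 19 of 24 below 0, 2 called higher and 2 called lower over 5.22 Mb. All 24 neighbours lay above NRG1, the nearest in value being the ERK phosphatase gene DUSP4 at -1.16. Less its neighbours' median, the log2 fold of NRG1 was -1.02. For TGFA the neighbours' median was 0.02, with 12 of 24 below 0 and 2 called each way, and 1 neighbour lay above it, the annexin gene ANXA4 at 0.80. Less this median TGFA was at 0.77. ERBB3, which was not called, lay above all 24 of its neighbours, so standing outside all 24 was not particular to a called member. Around AREG the median was -0.12 with 2 neighbours higher and 6 lower over 4.56 Mb. Around EGFR it was 0.09 with 2 higher and none lower, over a much wider span of 17.0 Mb. The part of the surroundings in the NRG1 difference was not tested.

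**Figure D4:**
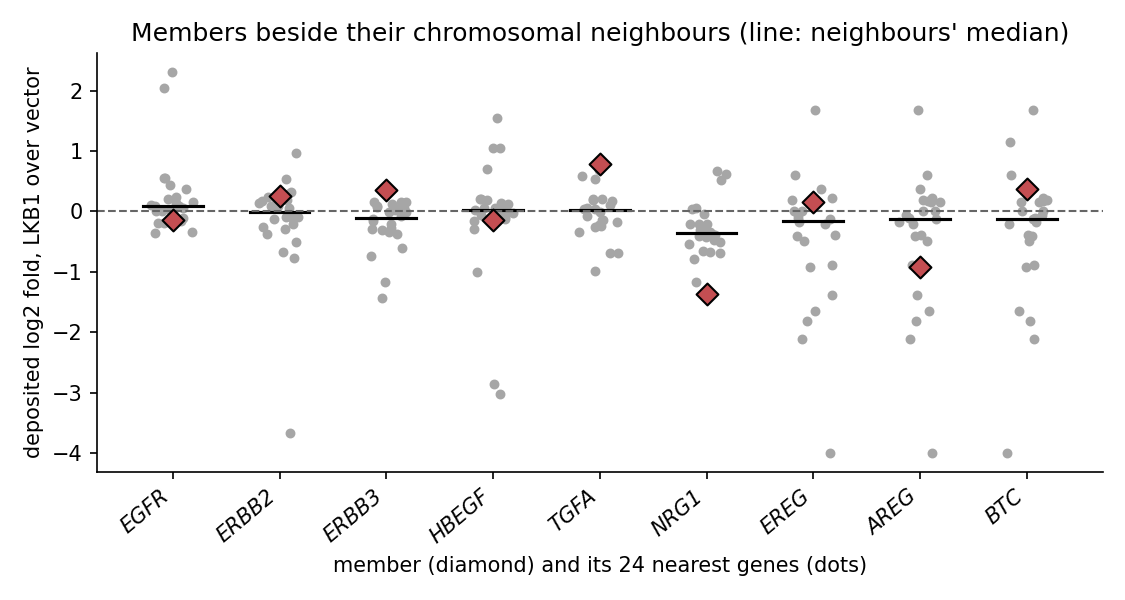
Deposited log2 fold of each member with reads (red diamond) and of its 24 nearest genes with at least 40 reads (grey dots, black line at their median). NRG1 lies below all 24 of its neighbours, whose median is -0.36, and TGFA lies above 23 of 24, whose median is 0.02.

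The rest of the pathway was described by lists written with earlier results of these data known. Each was read against the background of 5.79% of all genes and 12.6% of those with at least 40 reads. With an assumed variation of 0.2 the background was 2.51% of the 34529 genes with known totals. Among 12 genes of ligand shedding 3 rose and 2 fell, at a median log2 fold of -0.05. The metalloprotease gene ADAM10, a sheddase of EGF and BTC, rose from 3097 to 4676 reads (log2 0.54, SE 0.14, adjusted p = 0.00529 in the authors' deposited table). ADAM12 rose from 30 to 97 reads (log2 1.63, SE 0.32) and the rhomboid protease gene RHBDL2 from 73 to 167 (log2 1.14, SE 0.28). ADAM19 fell from 909 to 526 reads (log2 -0.85, SE 0.16). ADAM17, the main sheddase of TGFA, AREG and HBEGF, was at -0.18 (1149 and 1051 reads, SE 0.16, adjusted p = 1). With an assumed variation of 0.2, ADAM12 alone of these 12 was called.

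Of 33 adaptor and core relay genes 3 rose and 2 fell, at a median of -0.03, a share of 15.2% that is near the background of genes with reads. The SH2 adaptor gene NCK2 rose by 0.72 on the log2 scale (677 to 1162 reads, adjusted p = 0.000273 in the authors' deposited table), and the RAF kinase genes ARAF and BRAF by 0.60 and 0.58. The docking protein gene GAB2 was at -0.67 and the PI3K subunit gene PIK3R2 at -0.49, both called lower. None of the 33 was called with an assumed variation of 0.2. The other 28 genes of the list did not pass.

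Among 24 genes that restrain or turn over the receptors 4 rose and 3 fell, at a median of 0.18. LRIG1, a membrane protein that lowers ERBB receptor levels, rose from 506 to 991 reads (log2 0.91, SE 0.17, adjusted p = 2.83e-06 in the authors' deposited table). SH3KBP1, an adaptor of receptor endocytosis, rose from 1156 to 2253 reads (log2 0.91, SE 0.15). ERRFI1, an EGFR inhibitor that growth factor signalling induces, was lower by 0.76 on the log2 scale (SE 0.15, adjusted p = 1.27e-05). The list thus held called genes in both directions. With an assumed variation of 0.2, SOCS2 was the 1 of the 23 with a known read total that was called (171 and 72 reads).

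Of 14 receptor partner genes 4 rose and 1 fell, at a median of 0.31. The membrane mucins MUC4, a partner of ERBB2, and MUC1 rose, MUC4 from 41 to 253 reads (log2 2.56, SE 0.32, adjusted p = 1.35e-13 in the authors' deposited table) and MUC1 from 31 to 104 (log2 1.68, SE 0.33). The integrin chain gene ITGB4 rose from 2969 to 5952 reads (log2 0.95, SE 0.15). CD9, a tetraspanin that associates with the HBEGF precursor, fell from 1640 to 1079 reads (log2 -0.66, SE 0.16). MUC1, MUC4 and ITGB4 were also called with an assumed variation of 0.2, which could not be run for AXL and CD44, whose totals are unknown. The receptor tyrosine kinase gene MET was at 0.40 (2716 and 3737 reads, adjusted p = 0.0666).

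Genes of ERK-driven feedback and early response fell in 10 of 24 members, and none rose. Their median log2 fold was -0.44, with 20 of the 22 members that had at least 40 reads below 0, and -0.30 over the 20 members with at least 200 reads. The early response factor gene EGR1 fell from 438 to 105 reads (log2 -2.11, SE 0.22, adjusted p = 1.25e-19 in the authors' deposited table). DUSP6 and DUSP4, which encode ERK phosphatases, fell by 1.24 and 1.16 on the log2 scale (2490 to 1097 and 9066 to 4209 reads). SPRY1, which encodes a Sprouty inhibitor of receptor signalling, fell by 1.67 (413 to 135 reads). FOSL1 was at 0.26 (adjusted p = 0.554), CCND1 at -0.11 (adjusted p = 1) and the ETS factor gene ETV5 at -0.25 (adjusted p = 0.658). With an assumed variation of 0.2, 5 of the 10 were called: EGR1, DUSP6, DUSP4, SPRY1 and SPRED3. This list was partly known to hold lower genes when it was written, so its direction is no independent evidence.

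**Figure D5:**
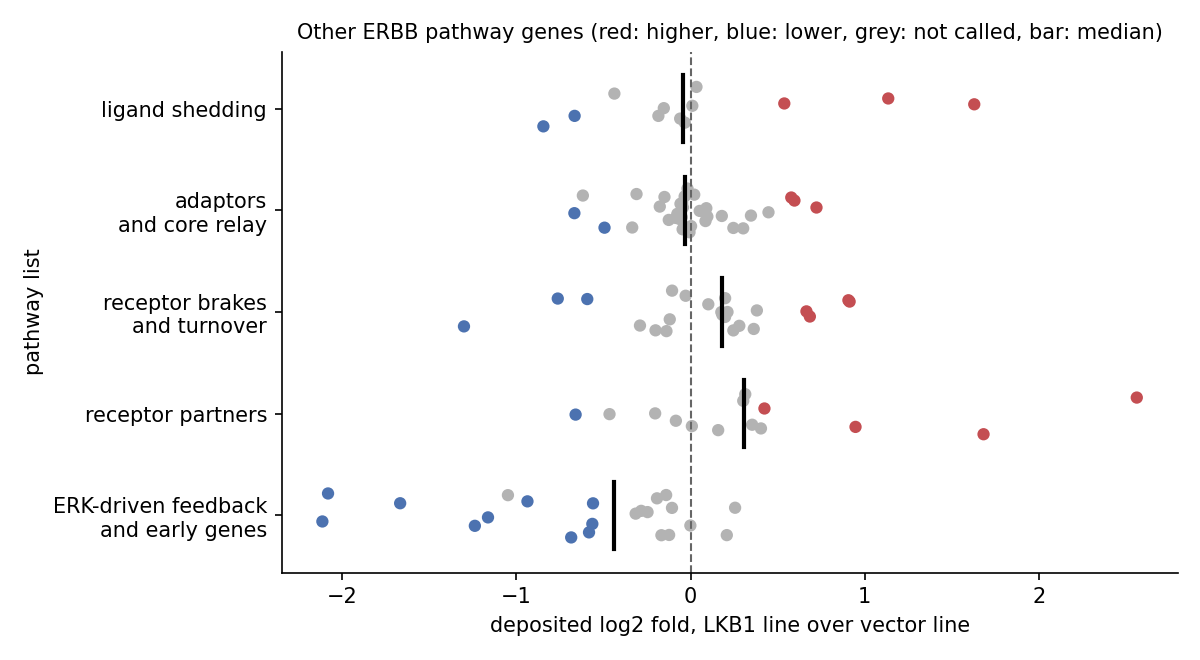
Deposited log2 fold (LKB1 over vector) of pathway genes with at least 40 reads, by list, with genes called higher in red, called lower in blue, not called in grey and a black bar at the list's median. The ERK-driven list has 10 genes called lower and none higher, and the other 4 lists have calls in both directions.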

How the data were processed

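RNA of 2 stable MDA-MB-231 lines, 2 libraries each, was sequenced by a stranded whole-transcriptome method, per the labels. Per the submitters' processing notes, edgeR 2.6.0 and TopHat2 2.0.6 were among the tools, with CASAVA 1.8.2 and the build hg19, and no roles are stated. For counting, use of strand and annotation release the sources used here give nothing. Per the file headers, the authors' deposited values are the fold (a ratio of the lines), the log2 fold, the p-value and its adjusted form, of 1 comparison, so no library could be examined or left out. The adjusted p-values are the Benjamini-Hochberg adjustment over 34675 genes (largest difference 1.89e-06).

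Read totals per line were recovered from the folds, which carry a prior of 0.5 reads shared between the lines by depth. Whole totals below 3000 matched 27301 of 28242 genes with reads (96.7%), and constants altered by 0.1% matched 30 to 51. Of the 941 others, 795 matched 1 pair below 12000, EGFR among them (35 and 41 matched with altered constants). The method was tested on simulated data. An SE is the log2 fold over the normal deviate of its p, so it is no independent evidence, and 95% intervals follow from it. Assumed variation between libraries was tested with an exact negative binomial test of the totals, adjusted over all genes with known totals. Errors of levels join counting error with the implied variation.

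Exon lengths came from GENCODE 29 by Ensembl identifier, and 97.5% of protein-coding genes matched. Python 3.11.15, scipy 1.17.1 and pandas 2.3.3 were used. The members and lists were chosen with earlier results of these data known. Named genes were all members, the other family genes, STK11, AREGB and up to 4 genes of each list with the smallest p. ADAM17, BRAF, SOCS2, MET, AXL, CD44, SPRED3, FOSL1, CCND1, ETV5, ANXA4, the overlapping genes and the single markers were named after their values were seen. Promoters of 8 members were searched, and those of ERBB3 and NRG1 were not used here. Single values of some pathway genes that the counts include are not reported here.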

Additional observations from a re-analysis of the deposited data

How the results depend on the processing

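The 2 member calls, TGFA higher and NRG1 lower, were also made at an adjusted p under 0.01 and under 0.1 and at a fold of at least 1.5. These outcomes follow from the values given above and are no further test. Both calls were also made with p adjusted over genes of at least 40 or 200 reads, and with an assumed variation of 0.1. That variation is near what the deposited p-values imply, so it largely repeats the deposited test. At an adjusted p under 0.01 and under 0.1, 1370 (3.95%) and 2414 (6.96%) of all genes were called, and 1718 (4.95%) at a 1.5-fold limit. Adjustment over the 14387 genes of at least 40 reads gave 2218 (15.4%), and over the 11249 of at least 200 reads 1663 (14.8%). A variation of 0.1 gave 2375 (6.88%) of the 34529 genes with known totals. At a fold of at least 2 the members called numbered 1 (NRG1) and the pathway genes 10, in place of 2 and 33. With an assumed variation of 0.2 they numbered 1 (NRG1) and 10. With 0.3 they numbered 0 and 4 by the exact negative binomial test, where 1 member (NRG1) had an unadjusted p under 0.05. Over all genes 1032 (2.98%) were called at a fold of at least 2, in place of 2007 (5.79%). Of the genes with known totals 867 (2.51%) were called with a variation of 0.2 and 474 (1.37%) with 0.3. The implied variation has a median of 0.105 over protein-coding genes with at least 200 reads. Assumed variation and readjusted p-values leave a log2 fold as it is and bear only on the call. Of the settings that can move a fold (5 reads added, or the median of all genes or of the 24 nearest subtracted), 1 moved a member's fold by more than its SE, namely NRG1 less its neighbours' median. None changed the direction of NRG1 or TGFA. Subtracting the median of all genes with at least 200 reads (-0.005) changed no direction. With the longest transcript as length, levels in the vector line went from 93.9 to 146 for NRG1, 536 to 619 for EGFR, 195 to 230.4 for ERBB2, 13.6 to 17.1 for ERBB3 and 183 to 203 for TGFA. The median of the family genes outside the members went from -0.55 to -0.91 (1 gene) and that of the ERK-driven list from -0.44 to -0.30 when only genes of at least 200 reads were kept. No paired analysis was possible because the table holds no value per library, and leaving out a library could not be run for the same reason. AREG and BTC, with 48 and 82 reads in all, are limited by depth, and their intervals cover folds of 0.252 to 1.12 and 0.722 to 2.30.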

Other observations

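Genes that overlap members in the table were read beside them. RP11-603J24.9, a protein-coding entry on the same strand as ERBB3, had 1161 reads with the vector and 971 with LKB1 (log2 -0.31, adjusted p = 0.512 in the authors' deposited table), many more than the 101 and 134 of ERBB3. How reads in shared exons were assigned is not given in the sources used here, so the ERBB3 total is uncertain. MIEN1 and PGAP3, on the strand opposite to ERBB2, had 157 and 236 reads and 162 and 190 reads, and neither was called. The intronic entries of NRG1 and TGFA held at most 10 reads each in a line. NRG1-IT1 had 3 and 7 reads and NRG1-IT2 had 10 and 7.

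The variation between libraries that the deposited p-values imply was calculated back from those p-values, so it is no measured spread among libraries. For the members with reads it lay between percentiles 10.7 (ERBB2) and 83.2 (EREG) among protein-coding genes of like totals, and NRG1 was at percentile 25.9. The neuregulin gene NRG2, which is no member, was at percentile 99.1 with an implied variation of 0.510, beside totals of 39 and 38 reads that are nearly equal. With such totals the p-value depends little on the variation, so 0.510 is poorly determined and shows no unusual spread of NRG2.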
